A study of Mus musculus with 10 samples.

Results

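The genes described here are 10 mouse genes of MHC class II antigen presentation and of dendritic cells: H2-Aa, H2-Ab1, H2-Eb1, Cd74, Ciita, H2-DMa, Cd207, Itgax, Ccr7 and Flt3. They were taken as the probe sets whose annotated symbol is 1 of these 10 names. Of the 10 listed genes, 9 had a probe set with that symbol, 1 each, among 19505 genes on the array. Of these 9, 8 passed the filter on low levels and entered the tests, together with 13653 genes in all. Cd74, the class II invariant chain, was not analysed here.

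The study measured total RNA of whole back skin from C57BL/6J mice, 9 weeks old at the start, on 10 Affymetrix arrays. In expanded skin a silicone expander lay under the skin and was gradually filled with PBS, and 1 array was made at each of days 0, 7, 14 and 21 after the full injection. In non-expanded skin the expander was implanted and never filled, with 1 array at each of the same 4 days. Skin of mice without surgery gave 1 array in anagen, the growth stage of the hair cycle, and 1 in telogen, its resting stage. All 8 expander samples therefore share the implant. The labels do not say whether an array held 1 mouse or several, so the p-values below reflect only how far single arrays scatter. The values are log2 signals of 1 probe set per gene, and differences are log2 differences, so that 1 unit is a 2-fold change. In RNA of whole skin, fewer cells of a type and less RNA per cell cannot be told apart.

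MHC class II molecules are heterodimers of an alpha and a beta chain that carry peptides from engulfed proteins to the surface of antigen-presenting cells, where CD4 T cells read them. H2-Aa and H2-Ab1 encode the chains of I-A, and H2-Eb1 encodes the beta chain of I-E, whose alpha chain is not made in C57BL/6 mice. H2-DMa encodes a chain of H2-M, which exchanges the placeholder peptide left by the invariant chain for antigen peptides. Ciita encodes the coactivator on which transcription of these genes depends. In skin the main resident cells with class II are Langerhans cells of the epidermis, dermal dendritic cells and some macrophages. Cd207 encodes langerin, the lectin of Langerhans cells. Itgax encodes the integrin CD11c. Ccr7 encodes the chemokine receptor that leads maturing dendritic cells to the lymph node. Flt3 encodes the receptor of a growth factor for dendritic cell precursors.

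The class II genes share a promoter layout known as the SXY module, in which an X box, an X2 box and an inverted CCAAT (the Y box) are bound by RFX, CREB and NF-Y, which together recruit CIITA. RefSeq promoter entries on GRCm38.p6 matched 6 of the 10 listed genes: H2-Aa, H2-Eb1, H2-DMa, Cd207, Itgax and Flt3. The 150 bases upstream of the annotated start are shown for H2-Aa and H2-Eb1, whose levels moved together on these arrays, for H2-DMb1, the partner chain of H2-DMa, and for Cd207, which is no class II gene. They lie at chr17:34287824-34287973 on the minus strand (H2-Aa), chr17:34305717-34305866 on the plus strand (H2-Eb1), chr17:34153041-34153190 on the plus strand (H2-DMb1) and chr6:83677858-83678007 on the minus strand (Cd207). Capitals mark the Y box CCAAT, the X box core AGCAAC and the X2 box core TGACG, each searched on both strands, so that an inverted Y box reads ATTGG.
H2-Aa: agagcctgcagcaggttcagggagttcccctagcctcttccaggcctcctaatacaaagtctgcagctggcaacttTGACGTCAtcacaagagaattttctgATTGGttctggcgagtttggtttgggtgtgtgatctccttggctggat
H2-Eb1: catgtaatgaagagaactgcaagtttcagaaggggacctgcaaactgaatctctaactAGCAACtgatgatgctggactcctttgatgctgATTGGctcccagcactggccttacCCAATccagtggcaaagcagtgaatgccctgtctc
H2-DMb1: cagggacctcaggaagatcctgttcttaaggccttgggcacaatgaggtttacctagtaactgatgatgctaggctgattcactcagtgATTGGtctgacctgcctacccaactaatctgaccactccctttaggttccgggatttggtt
Cd207: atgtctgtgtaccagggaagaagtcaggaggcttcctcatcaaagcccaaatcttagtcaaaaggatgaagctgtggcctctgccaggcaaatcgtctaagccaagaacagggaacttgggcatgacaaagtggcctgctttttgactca
The inverted CCAAT began 48 bases before the start in H2-Aa, 59 in H2-Eb1 and 61 in H2-DMb1. In H2-Eb1 an AGCAAC began 33 bases upstream of it, and a further CCAAT in the forward direction began 35 bases before the start. In H2-Aa a TGACG began 74 bases before the start, and its match on the other strand overlapped it. The Cd207 and Flt3 windows held none of these letters, and the Itgax window held 1 AGCAAC. Both annotated H2-DMa windows, at chr17:34122682-34122831 and chr17:34125368-34125517, also held none. They lie inside the annotated span of the gene (chr17:34119693-34139101), and no other start of H2-DMa was searched. Over all 32851 RefSeq promoter windows of this length, 24.5% held a CCAAT, 7.75% an AGCAAC and 13.3% a TGACG, and 5.32% held a CCAAT with at least 1 of the others. These matches describe letters and no binding was measured.

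On the 10 arrays, medians lay between 6.27 and 6.45, and 23 probe sets for background had a median of 5.46. Keratinocyte markers were high throughout, with list means of 14.33 to 15.21 in expanded, 13.43 to 14.68 in non-expanded, 12.56 in anagen and 13.63 in telogen skin. The 3 class II chain genes and Ccr7 stood above the background median on every array. H2-DMa, Ciita and Cd207 stood above it on every array but anagen. Itgax was below it on 7 of 10 arrays and Flt3 on all 10, as were 5 of 7 measured B cell markers. Of 8 measured markers of cross-presenting dendritic cells (DC1), 4 were also below it on all 10, namely Xcr1, Clec9a, Batf3 and Clnk. Of the other DC1 markers, Tlr3 and Cadm1 stood above it on every array, Irf8 was below it on 2 and Wdfy4 on 5. Of the 4 dendritic cell genes among the 10 listed, Cd207 and Ccr7 thus gave a signal above background on most arrays, and Itgax and Flt3 did not. Macrophage genes, which come from cells that can also carry class II, were well detected, with list means of 10.58 to 11.98 in expanded, 10.55 to 12.68 in non-expanded, 8.42 in anagen and 9.38 in telogen skin.

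The first comparison asks what filling the expander did to these genes beyond the implant itself. None of the 8 tested genes separated the 2 arms, and none changed in the same direction on all 4 days. The class II chain genes H2-Aa, H2-Ab1 and H2-Eb1 were high in both arms. The order of the arms turned over the days. Of the 8 tested genes, 6 were higher in expanded skin on day 0 and 6 were lower on day 21.

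H2-Aa (chr17:34282744-34287823, mm10) measured 12.91, 13.56, 12.52 and 12.83 in expanded skin on days 0, 7, 14 and 21, against 11.96, 13.02, 12.15 and 13.59 in non-expanded skin. Its partner H2-Ab1 (chr17:34263227-34269418) measured 13.39, 14.04, 12.68 and 13.04 in expanded skin, against 11.40, 13.72, 12.66 and 14.10 in non-expanded skin. In both genes expanded skin was the higher on the first 3 days and non-expanded skin on day 21, and the arms overlapped. On day 14 the 2 values of H2-Ab1 were only 0.03 apart. The mean difference was 0.28 ± 0.32 for H2-Aa (SE, 95% interval -0.49 to 1.05, limma adjusted p = 0.821, n = 4 arrays an arm). For H2-Ab1 it was 0.32 ± 0.47 (-0.81 to 1.45, limma adjusted p = 0.866). These intervals leave room for a change of more than 2-fold upward in either gene. H2-Eb1 (chr17:34305867-34316674) measured 11.69, 12.65, 10.75 and 11.48 in expanded skin, against 10.92, 11.71, 11.68 and 12.67 in non-expanded skin. It was higher in expanded skin on days 0 and 7 and lower on days 14 and 21. Its mean difference was -0.10 ± 0.43 (-1.13 to 0.92, limma adjusted p = 0.961).

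H2-DMa (chr17:34119693-34139101), which edits the peptides on the I-A molecules above, measured 7.75, 9.15, 7.19 and 7.30 in expanded skin, against 7.72, 8.26, 7.58 and 8.91 in non-expanded skin. The arms were level on day 0 and lay furthest apart on day 21, with the non-expanded array higher. The mean difference was -0.27 ± 0.41 (-1.24 to 0.70, limma adjusted p = 0.870). Ciita (chr16:10480014-10531064), the coactivator, measured 6.26, 6.33, 6.09 and 5.84 in expanded skin, against 5.75, 5.96, 5.79 and 7.63 in non-expanded skin. Expanded skin was slightly higher on days 0, 7 and 14, and the day 21 non-expanded array alone stood far above the other 7 expander arrays. The mean difference was -0.15 ± 0.42 (-1.16 to 0.86, limma adjusted p = 0.934), and without day 21 it was 0.39 (limma adjusted p = 0.902).

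Cd207 (chr6:83671207-83677857), the Langerhans cell lectin, measured 6.64, 7.09, 6.65 and 5.65 in expanded skin, against 6.79, 5.99, 7.23 and 7.00 in non-expanded skin. The lowest of the 8 values was the expanded array of day 21, close to the background median, and the highest was the non-expanded array of day 14. The mean difference was -0.25 ± 0.40 (-1.21 to 0.71, limma adjusted p = 0.880). Ccr7 (chr11:99144199-99155077), the receptor for exit to the lymph node, measured 7.33, 7.90, 7.32 and 7.66 in expanded skin, against 8.12, 7.46, 6.92 and 7.22 in non-expanded skin. Its arms overlapped, and expanded skin was lower on day 0 and higher on the other 3 days. The mean difference was 0.12 ± 0.29 (-0.57 to 0.82, limma adjusted p = 0.919).

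Itgax (chr7:128129526-128150657), the CD11c gene, measured 7.64, 5.84, 5.19 and 5.16 in expanded skin, against 5.13, 6.09, 5.40 and 4.99 in non-expanded skin. A single array, expanded skin on day 0, stood above all others, and 5 of the 8 values lay under the background median of 5.46. The mean difference was 0.56 ± 0.49 (-0.62 to 1.73, limma adjusted p = 0.762), and -0.09 without day 0. Flt3 (chr5:147330741-147400489) measured 4.29, 4.14, 3.79 and 3.66 in expanded skin, against 3.99, 3.75, 4.06 and 4.06 in non-expanded skin. All of these lie below the background median, so its level was not measurable here. Fitted with the filter on low values removed, its mean difference was 0.00 ± 0.22 (-0.53 to 0.54, limma adjusted p = 0.998).

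**Figure D1:**
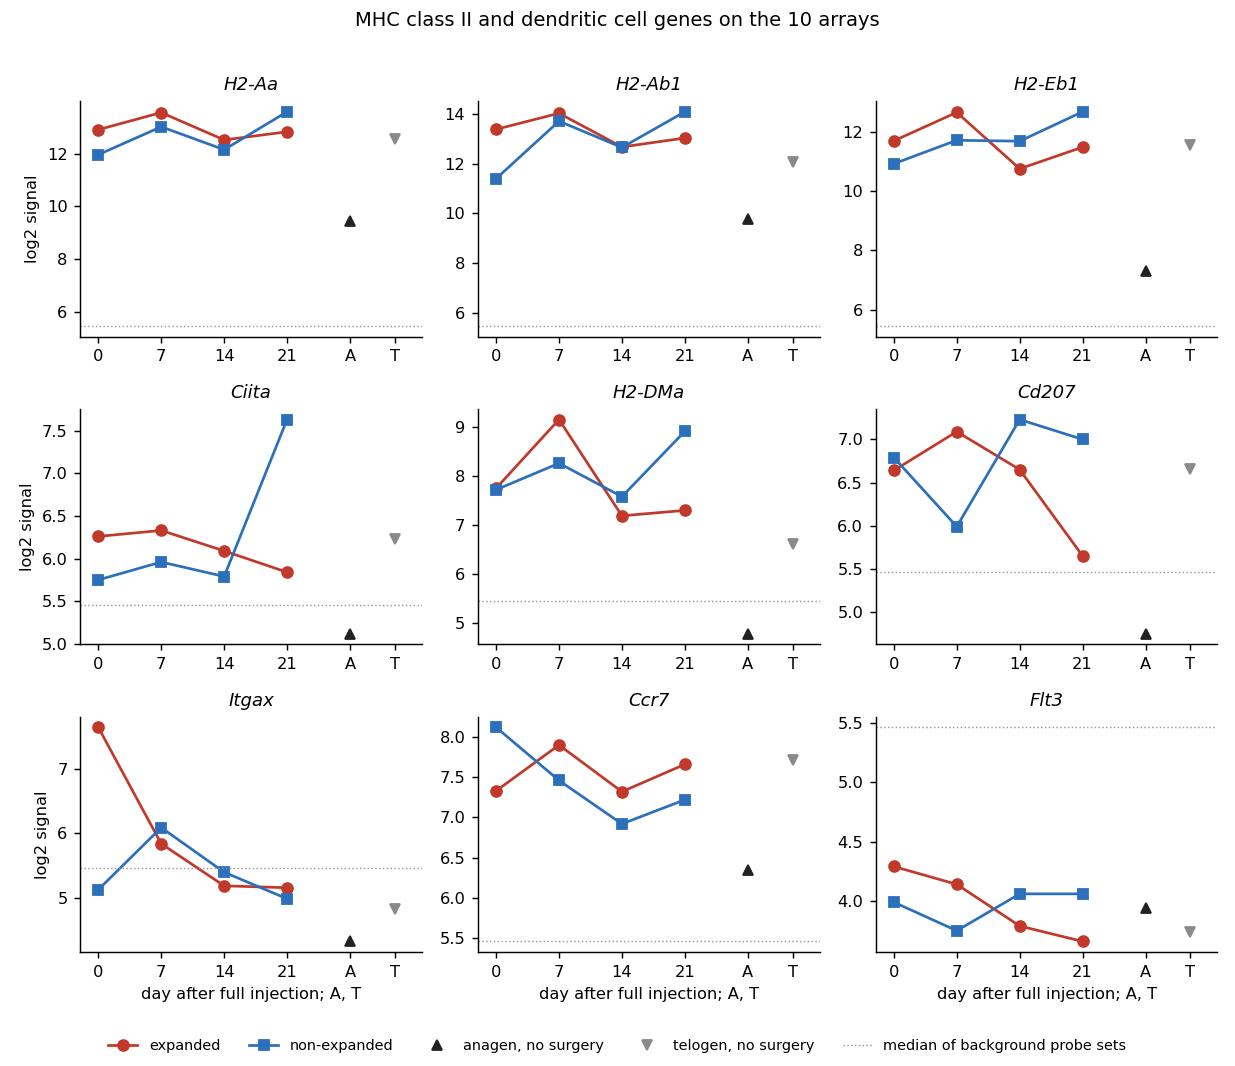
Log2 signal (y axis, a separate range for each gene) of the 9 genes with a probe set, by day after full injection for expanded (red circles) and non-expanded skin (blue squares), with the anagen (A, black) and telogen (T, grey) arrays of skin without surgery at the right, 1 array per point. The 2 arms cross in every gene, the anagen array is the lowest of the 10 in all genes but Flt3, and the dotted line is the background median of 5.46.

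Across the 8 genes, 4 were higher and 4 lower in expanded skin, with a median difference of 0.01, against 0.02 over all 13653 genes tested. None passed an adjusted p of 0.05, a threshold that 0% of all genes passed, and none had an unadjusted p under 0.05, against 8.8% of all genes. The arms overlapped in all 8, whereas they did not overlap in 4.83% of all genes. No member was higher on all 4 days (9.18% of all genes) or lower on all 4 (8.1%).

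Single days had 1 array an arm and therefore no test. On day 0, 2 of the 8 genes were at least 2-fold higher in expanded skin, H2-Ab1 by 1.99 and Itgax by 2.51, against 9.49% of all genes, and none was 2-fold lower (6.18%). On day 7, 7 of 8 were higher, with a median difference of 0.49, and Cd207 was the only member past 2-fold, at 1.09 (8.45% of all genes were 2-fold higher and 9.43% 2-fold lower). On day 14 the genes were split 4 and 4, with a median of -0.09 and none past 2-fold, against 11.4% of all genes higher and 8.85% lower. On day 21, 6 of 8 were lower in expanded skin and 5 of these by at least 2-fold, against 6.13% of all genes. The 5 were Ciita at -1.79, H2-DMa at -1.60, Cd207 at -1.34, H2-Eb1 at -1.19 and H2-Ab1 at -1.05, and the median over the 8 was -1.12.

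Other cell type markers moved with this day 21 difference. All 10 tested macrophage genes were at least 2-fold lower in expanded skin on day 21, with a median of -1.89, as were 7 of 8 general leukocyte genes, with a median of -1.62. The macrophage list mean was 10.58 in expanded and 12.51 in non-expanded skin on that day. On day 7, when 7 of 8 members were higher in expanded skin, all 10 macrophage genes were lower (median -0.65). On day 14, when the members were split 4 and 4, all 10 were higher (median 0.94). On day 21 all 9 keratinocyte genes were higher in expanded skin, with a median of 1.30. The part of these shifts in the class II values was not tested.

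**Figure D2:**
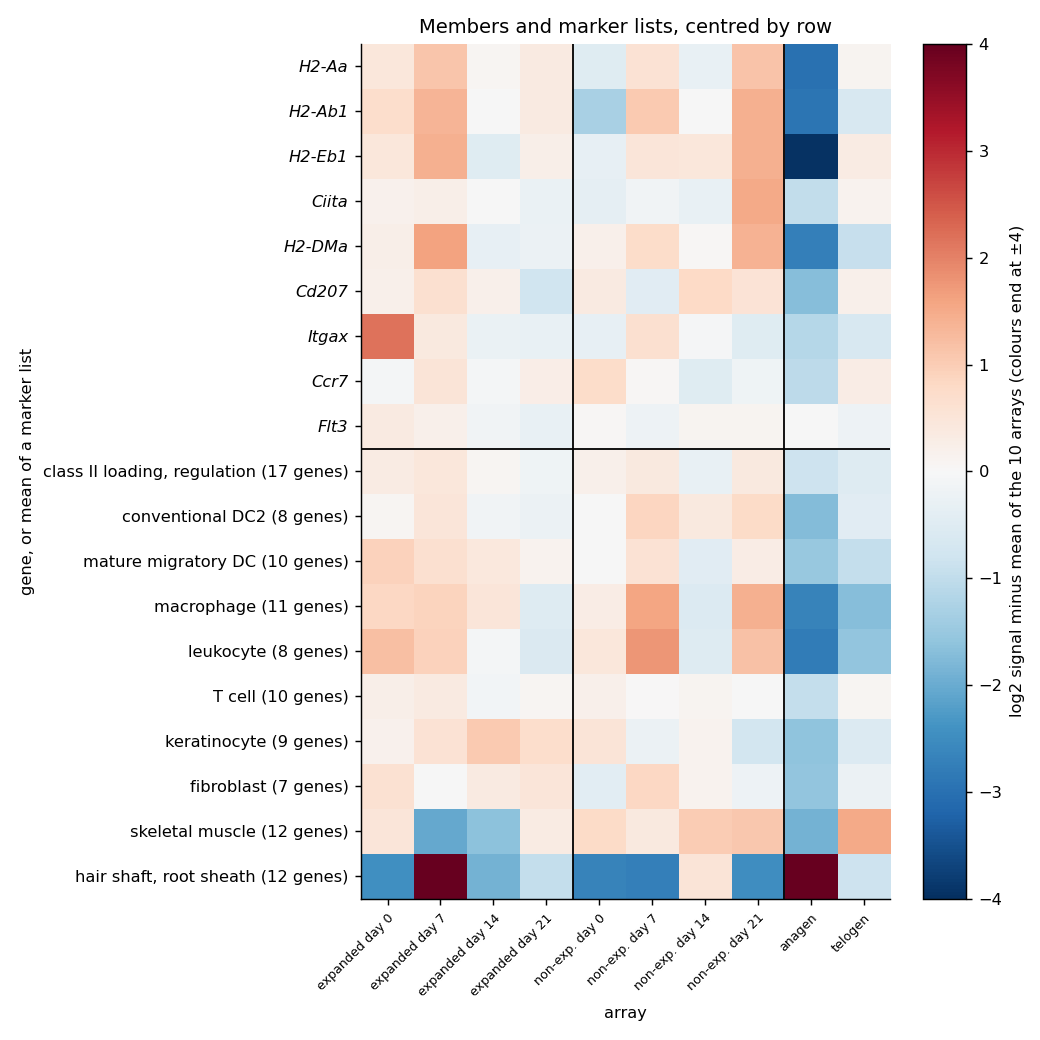
Log2 signal minus the mean of the 10 arrays (colour) for the 9 measured genes, above the line, and for the means of marker lists, below it, with 1 column per array. The class II genes are high on the expanded day 7 and non-expanded day 21 arrays and lowest on the anagen array, where the macrophage and leukocyte lists are also lowest and the hair list is highest.

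The time course within each arm was fitted as a straight line, and its slope is expressed per 21 days, from the first to the last day. In expanded skin 7 of 8 members had a downward slope and 1 an upward one, with a median of -0.74, against 0.01 over all genes. Macrophage genes sloped downward in 10 of 10, with a median of -1.46, and general leukocyte genes in 8 of 8, with a median of -1.62. None of the members passed the adjusted test (0% of all genes). Itgax alone had a downward slope with an unadjusted p under 0.05, against 1.3% of all genes, at -2.43 ± 0.70 (SE, limma adjusted p = 1.0). That slope was -1.02 without day 0. In non-expanded skin 6 of 8 members sloped upward, with a median of 1.03, against 0.0 over all genes. In that arm macrophage genes sloped upward in 8 of 10 (median 0.37), and general leukocyte genes were split 4 and 4 (median 0.08).

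H2-Ab1 had the steepest upward line in non-expanded skin, 2.10 ± 0.87 over 21 days (limma adjusted p = 0.991), and it was 0.57 without day 0. Ciita followed with 1.64 ± 0.61 (limma adjusted p = 0.991), which was 0.06 without day 21. H2-Eb1 gave 1.56 ± 0.74 and H2-Aa 1.20 ± 0.69, both with a limma adjusted p of 0.991. None passed the adjusted test (0% of all genes), and H2-Ab1 and Ciita had an upward slope with an unadjusted p under 0.05, against 1.98% of all genes. The difference of the slopes, expanded minus non-expanded, was negative for 7 of 8 members, with a median of -1.97 against 0.01 over all genes, and positive for Ccr7 at 1.10 ± 0.71. It was also negative for 10 of 10 macrophage genes, with a median of -1.87, and for 8 of 8 general leukocyte genes, with a median of -1.70, and the part of these shifts in the members' slopes was not tested. Its size was -2.82 ± 1.24 for H2-Ab1, -2.32 ± 1.04 for H2-Eb1 and -2.09 ± 0.86 for Ciita (limma adjusted p = 0.999 for each). For Ciita it was -0.31 without day 21. No gene passed this test (0%), and 1 member, Ciita, had a negative difference with an unadjusted p under 0.05, against 0.674% of all genes.

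The second comparison sets both kinds of expander skin against skin without surgery, and both contrasts share the anagen and telogen arrays. All 8 members had higher means in expanded than in no-surgery skin, with a median difference of 1.66 against 0.01 over all genes. H2-Ab1 was higher by 2.37 ± 0.80 (SE, 95% interval 0.60 to 4.14, limma adjusted p = 0.178), H2-Eb1 by 2.21 ± 0.98 (0.04 to 4.39, limma adjusted p = 0.300) and H2-DMa by 2.15 ± 0.66 (0.69 to 3.60, limma adjusted p = 0.144). H2-Aa was higher by 1.94 ± 0.76 (0.26 to 3.63, limma adjusted p = 0.237). None passed the adjusted test, which 0.476% of all genes passed. These 4 had an unadjusted p under 0.05 upward, against 10.7% of all genes.

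All 8 members also had higher means in non-expanded than in no-surgery skin, with a median of 1.36 against 0.01 over all genes. H2-DMa was higher by 2.41 ± 0.66 (0.96 to 3.87, limma adjusted p = 0.130), H2-Eb1 by 2.31 ± 0.98 (limma adjusted p = 0.295) and H2-Ab1 by 2.05 ± 0.80 (limma adjusted p = 0.259). These 3 genes had an unadjusted p under 0.05 upward, against 9.42% of all genes, and no gene passed the adjusted test (0%). H2-Aa was higher by 1.66 ± 0.76, with an interval of -0.02 to 3.35 (limma adjusted p = 0.324). Ciita, Cd207, Itgax and Ccr7 gave smaller differences in both contrasts, from 0.40 for Ccr7 in non-expanded skin to 1.38 for Itgax in expanded skin, and their intervals included 0.

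**Figure D3:**
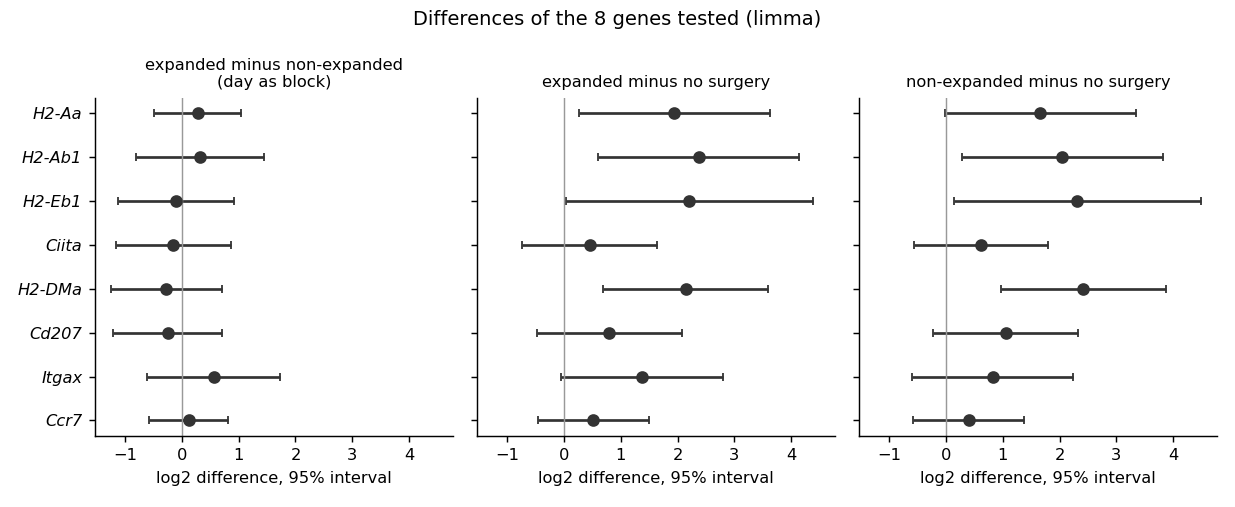
Log2 differences (x axis, points) with 95% limma intervals (bars) of the 8 tested genes, for expanded minus non-expanded skin, expanded minus no-surgery skin and non-expanded minus no-surgery skin. The intervals include 0 for all 8 genes on the left, and exclude it for H2-Aa, H2-Ab1, H2-Eb1 and H2-DMa in the middle and for H2-Ab1, H2-Eb1 and H2-DMa on the right.

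These differences rested on which no-surgery array was used. With anagen as the only no-surgery array, assumed to vary like the other groups, expanded skin was higher in H2-Eb1 by 4.34 (limma adjusted p = 0.00599), in H2-Aa by 3.50 (0.00775), in H2-DMa by 3.06 (0.0259) and in H2-Ab1 by 3.51 (0.0317), and 13.6% of all genes passed. In non-expanded skin the same 4 genes passed, with 4.45 for H2-Eb1, 3.22 for H2-Aa, 3.33 for H2-DMa and 3.19 for H2-Ab1, together with Cd207 at 2.00 (limma adjusted p = 0.0382), and 19.4% of all genes passed. With telogen as the only no-surgery array, no member passed. H2-Aa then differed by 0.39 in expanded and 0.11 in non-expanded skin, and H2-Eb1 by 0.08 and 0.18. H2-DMa differed by 1.23 in expanded and 1.50 in non-expanded skin, and H2-Ab1 by 1.23 and 0.91.

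The telogen array lay within the range of the 8 expander arrays for 6 of the 8 members, against 59.1% of all genes. The exceptions were H2-DMa, at 6.62 in telogen skin, and Itgax, at 4.83, for which all 8 expander arrays lay above both no-surgery arrays (8.1% of all genes). Both no-surgery values of Itgax, and 5 of its 8 expander values, lay under the background median. Macrophage genes were higher in 10 of 10 tested against no-surgery skin, with medians of 2.81 in expanded and 3.33 in non-expanded skin. General leukocyte genes were higher in 8 of 8, with medians of 2.65 and 2.89. They included Ptprc, which encodes CD45, at 2.44 ± 0.73 in non-expanded skin (limma adjusted p = 0.162). On leaving out 1 array, the Ptprc difference ranged from 1.08 to 3.8. The macrophage and leukocyte medians, too, take the anagen and telogen arrays together. The part of these shifts in the class II differences was not tested.

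Anagen skin held the lowest value of all 10 arrays in 8 of the 8 tested members, against 25.3% of all genes. H2-Eb1 measured 7.30 in anagen and 11.56 in telogen skin, a difference of -4.26. H2-Aa measured 9.46 in anagen and 12.57 in telogen skin (-3.11), and H2-Ab1 measured 9.78 in anagen and 12.06 in telogen skin (-2.28). H2-DMa measured 4.79 in anagen, under the background median, and 6.62 in telogen skin (-1.83). Each of these 4 genes lay at least 2-fold under the next lowest array, by 3.45 for H2-Eb1, 2.50 for H2-Aa, 1.83 for H2-DMa and 1.62 for H2-Ab1, as 5.87% of all genes did.

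The other 4 tested members were also lower in anagen skin, none of them 2-fold under the next lowest array. Cd207 measured 4.75 in anagen and 6.66 in telogen skin (-1.90), Ccr7 6.35 and 7.71 (-1.36), Ciita 5.12 and 6.23 (-1.11), and Itgax 4.33 and 4.83 (-0.50). For Cd207 and Ciita the anagen value, and for Itgax both values, lay under the background median. In all, 7 of 8 members were at least 2-fold lower in anagen than in telogen skin, against 20.4% of all genes, with a median of -1.87 against -0.01. Flt3, at 3.94 in anagen and 3.74 in telogen skin, was at background on both. With 1 array a stage there is no replicate check, and hair stage and array cannot be told apart.

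Many other genes differed between these 2 arrays. The 12 hair shaft and inner root sheath genes were all higher in anagen, with a median of 10.19, while 12 of 12 skeletal muscle genes were lower (median -3.29), as were 7 of 7 fibroblast genes (-1.19) and 10 of 10 class I presentation genes (-0.99). Macrophage genes were split, 4 higher and 6 lower (median -0.95), and leukocyte genes 2 higher and 6 lower (-0.40). Genes of CD11b-type dermal dendritic cells were lower in 7 of 8 (-1.43) and those of mature dendritic cells in 9 of 10 (-0.80). DC1 markers were lower in 4 of 4 tested (-1.18), and ligands and growth factors of dendritic cells in 8 of 8 (-1.41). Other Langerhans cell genes were 5 higher and 3 lower (0.32), and other class II loading and regulating genes 8 higher and 7 lower (0.05). The part of tissue make-up in the low class II signal of the anagen array was not tested.

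The expanded array of day 7 also carried hair transcripts, with a hair list mean of 12.06, against 16.25 in anagen, 6.54 in telogen and 4.65 to 7.89 on the other 7 expander arrays. Its class II genes were the highest of the expanded arrays. The mean of H2-Aa, H2-Ab1, H2-Eb1 and H2-DMa was 12.35 on that array, against 11.44, 10.79 and 11.16 on days 0, 14 and 21, and 7.83 in anagen skin. The part of hair content in the class II signal was not tested.

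**Figure D4:**
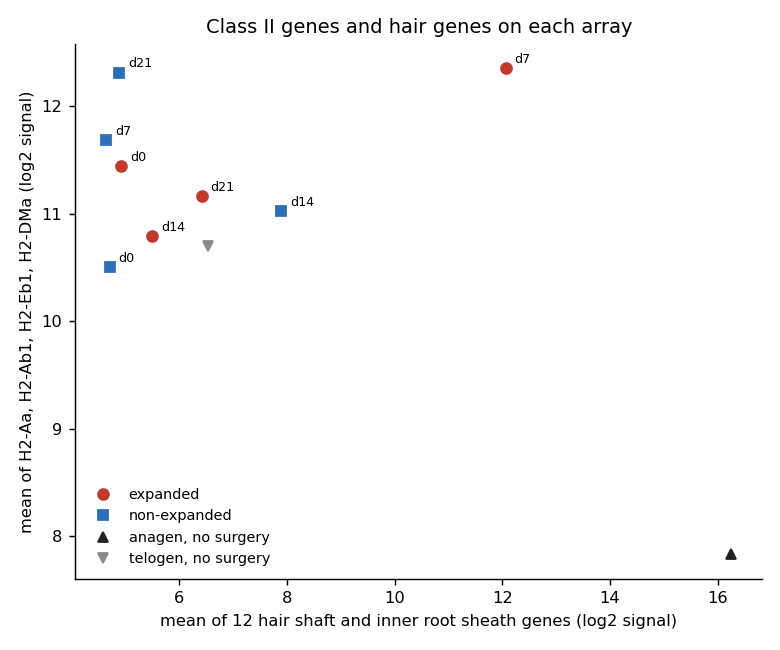
Mean log2 signal of H2-Aa, H2-Ab1, H2-Eb1 and H2-DMa (y axis) against the mean of 12 hair shaft and inner root sheath genes (x axis), 1 point per array, labelled with the day. The anagen array is at the lower right (16.25, 7.83) and the expanded day 7 array at the upper right (12.06, 12.35).

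The 3 closest pairs among the 9 measured genes were class II genes. After each gene was centred on its mean, the root mean square difference over the 10 arrays was 0.41 between H2-Aa and H2-Ab1, 0.45 between H2-Aa and H2-Eb1 and 0.52 between H2-Aa and H2-DMa. The next pair was Ccr7 and Flt3 (0.54), and H2-Ab1 and H2-Eb1 lay 0.61 apart. The distances are not scaled to each gene's spread. Flt3 was under the background median on all 10 arrays, with a range of 0.63, so its distance to Ccr7 mostly holds the spread of Ccr7. Ciita, which varied less, differed from H2-Aa by 0.78 and from H2-Ab1 by 0.93, and Cd207 differed from H2-Aa by 0.82. Outside the set, the 5 tested genes nearest to the mean of the 4 class II genes were Arhgap15 (0.37), H2-M3 (0.43), Lifr (0.51), Ptprc (0.52) and Tpsb2 (0.53). The 5 nearest to Cd207 were Cd40 (0.26), Nat2 (0.31), Iscu (0.33), S100a11 (0.34) and Psme1 (0.35). The anagen array weighs heavily in these distances, since it is the lowest array for the class II mean, at 7.83, and for Cd207, at 4.75.

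The wider class II list of 17 loading and regulating genes, of which 15 were tested, showed no common shift with expansion. In it 8 genes were higher and 7 lower in expanded than in non-expanded skin, with a median of 0.01, none passed the adjusted test, and 1 each way had an unadjusted p under 0.05, against 4.83% of all genes higher and 3.98% lower. H2-Ob, a chain of the H2-M inhibitor H2-O, differed by -0.82 ± 0.27 (limma adjusted p = 0.489). All 4 expanded arrays, at a mean of 5.48 ± 0.19 (SD), close to the background median, lay below all 4 non-expanded arrays, at 6.29 ± 0.42. Over all genes, the arms did not overlap in 4.83%. H2-Ob was named for the lowest p of its list, a choice that favours genes whose arms lie apart. H2-DMb2 and H2-DMb1, beta chains of H2-M, were higher in expanded skin on days 0, 7 and 14 and lower on day 21, with mean differences of 0.77 ± 0.31 (limma adjusted p = 0.554) and 0.65 ± 0.40 (0.689). These neighbouring genes are close in sequence, and probes may not separate them. Rfxap, a subunit of the RFX complex, differed by 0.24 ± 0.21 (limma adjusted p = 0.754).

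Against no-surgery skin, 9 of the 15 were higher and 6 lower in expanded skin, with a median of 0.32. Lgmn, a lysosomal protease that processes antigen, was the 1 gene of this list to pass, higher by 3.79 ± 0.65 (limma adjusted p = 0.0432). This call was close to the threshold and was lost with no filter on low values (0.0543), with values capped at 16 (0.0503) and on leaving out any of 6 single arrays. Those were expanded days 0, 7 and 14, non-expanded days 0 and 21, and anagen, with limma adjusted p from 0.0667 to 0.127. Ctss, the protease cathepsin S that trims the invariant chain, was higher by 4.36 ± 1.05 (limma adjusted p = 0.0870), and Rfxank, the RFX subunit, lower at -1.11 ± 0.27 (limma adjusted p = 0.0899). Without the telogen array the differences were 6.41 for Ctss and -1.40 for Rfxank. Over all fits that left out 1 array, Ctss ranged from 2.32 to 6.41 and Rfxank from -1.40 to -0.81. The proteases are also macrophage products, and some of their values lay above 16, the range limit of a scanner on the log2 scale.

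Of 10 tested genes of mature dendritic cells, 7 were higher in expanded than in non-expanded skin, with a median of 0.46, beside 52.5% higher and a median of 0.02 over all genes. None passed the adjusted test, and 3 were higher with an unadjusted p under 0.05, against 4.83% of all genes. The 3 lower genes, named after their values were seen, were the costimulation genes Cd80 at -1.17, Cd86 at -0.40 and Cd40 at -0.13. Ccl22, a ligand of CCR4 made by maturing dendritic cells, measured 7.39, 8.24, 7.71 and 6.32 in expanded skin on days 0, 7, 14 and 21, against 5.60, 6.89, 5.96 and 5.11 in non-expanded skin. It was higher on all 4 days (9.18% of all genes), by 1.53 ± 0.22 (0.99 to 2.06, limma adjusted p = 0.268), although the arms overlapped across days. Ccl17, its partner ligand of CCR4, measured 8.51, 9.55, 7.25 and 8.18 in expanded skin, against 7.40, 7.16, 5.87 and 7.30 in non-expanded skin. It was also higher on all 4 days, by 1.44 ± 0.30 (limma adjusted p = 0.318). Cd83, a surface protein that stabilises class II on mature dendritic cells, averaged 7.12 ± 0.68 (SD, n = 4) in expanded and 6.19 ± 0.20 in non-expanded skin. Its arms did not overlap (4.83% of all genes), and the difference was 0.93 ± 0.28 (limma adjusted p = 0.452). Ccl22, Ccl17 and Cd83 were named for the lowest p of their list, a choice that favours genes whose arms lie apart.

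Of the 8 tested genes of the ligands and growth factors that act on dendritic cells, 2 were higher and 6 lower in expanded skin, with a median of -0.20 and none past the adjusted test. Tslp, a keratinocyte cytokine that activates dendritic cells, measured 8.68, 10.10, 8.37 and 9.33 in expanded skin, against 7.04, 7.50, 7.34 and 6.95 in non-expanded skin. The arms did not overlap (4.83% of all genes), and the difference was 1.92 ± 0.32 (1.16 to 2.67, limma adjusted p = 0.273). Tslp, too, was named for the lowest p of its list, a choice that favours genes whose arms lie apart. Ccl21a, a lymphatic ligand of CCR7, averaged 11.17 ± 1.06 (SD) in expanded and 12.34 ± 0.49 in non-expanded skin (-1.16 ± 0.41, limma adjusted p = 0.505). Keratinocyte genes were themselves higher in expanded skin in 8 of 9, with a median of 0.63.

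Markers of the CD11b-type dendritic cells of the dermis (DC2) were mostly lower in expanded skin, 6 of 8 with a median of -0.53. Over all genes 52.5% were higher, with a median of 0.02. None of the 8 passed the adjusted test. At an unadjusted p under 0.05, 3 were lower and 1 higher, against 3.98% of all genes lower and 4.83% higher. In the same comparison general leukocyte genes were lower in 7 of 8 (median -0.29), macrophage genes in 7 of 10 (-0.32) and skeletal muscle genes in 11 of 12 (-1.43), and their part in the DC2 values was not tested. Irf4, a transcription factor that these cells need, measured 4.57, 5.09, 5.03 and 5.51 in expanded skin, against 5.50, 6.08, 6.28 and 6.38 in non-expanded skin. It was lower on all 4 days (8.1% of all genes), with a mean difference of -1.01 ± 0.21 (limma adjusted p = 0.318). Of its 4 expanded values, 3 lay under the background median. Cd209a, a lectin of dermal dendritic cells, measured 8.55, 9.06, 7.97 and 7.90 in expanded skin, against 9.59, 8.62, 10.10 and 9.57 in non-expanded skin, lower on all days but day 7 (-1.10 ± 0.43, limma adjusted p = 0.539). Clec10a, a lectin shared with macrophages, differed by -0.58 ± 0.23 (limma adjusted p = 0.545). Klf4, which is also a keratinocyte differentiation factor, was higher on all 4 days (9.18% of all genes), by 0.88 ± 0.25 (limma adjusted p = 0.425). Irf4, Cd209a, Clec10a and Klf4 were named for the lowest p of their list, a choice that favours genes whose arms differ on every day.

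**Figure D5:**
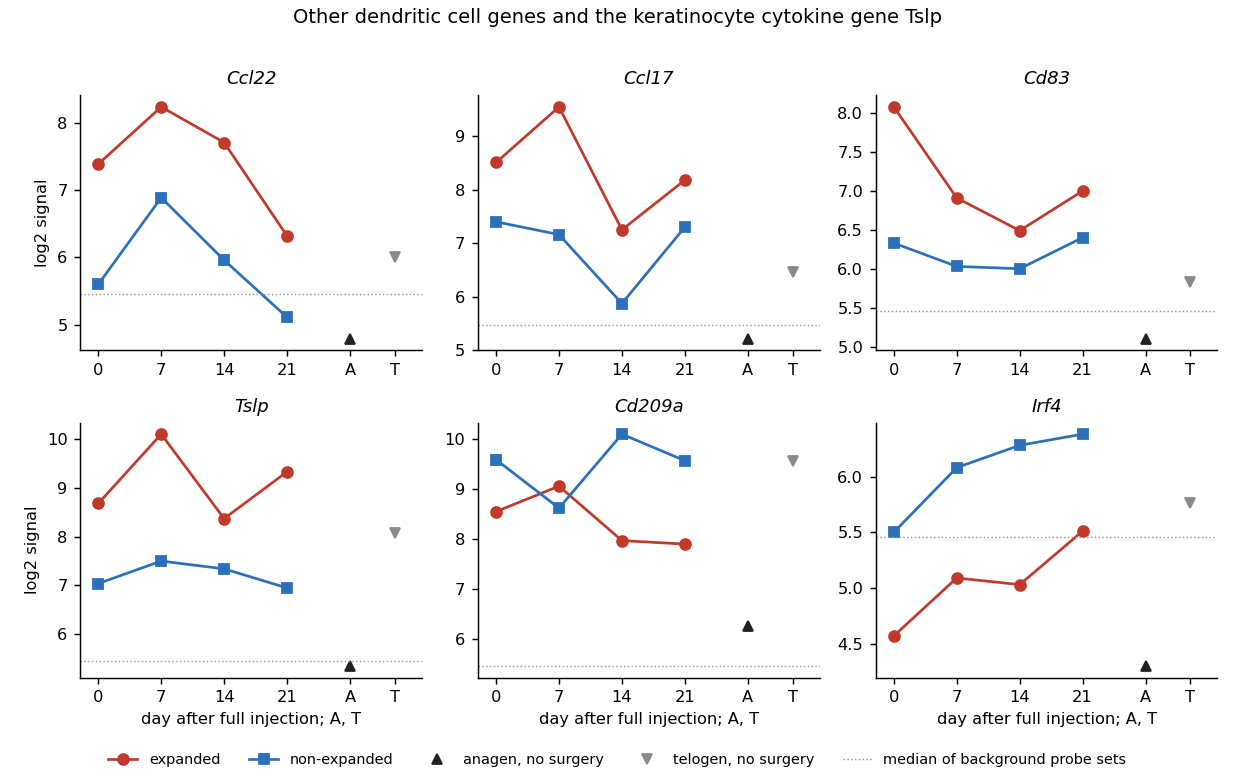
Log2 signal (y axis, a separate range for each gene) of Ccl22, Ccl17, Cd83, Tslp, Cd209a and Irf4 by day after full injection for expanded (red circles) and non-expanded skin (blue squares), with the anagen (A) and telogen (T) arrays at the right, 1 array per point. Ccl22, Ccl17, Cd83 and Tslp lie higher in expanded skin on all 4 days and Irf4 lower, and none of these differences passed the adjusted test.

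Other Langerhans cell genes, 8 tested, were higher in expanded skin in 6 and lower in 2, with a median of 0.24 and none past the adjusted test, beside the Cd207 difference of -0.25. In this comparison 52.5% of all genes were higher, with a median of 0.02. Keratinocyte genes were higher in 8 of 9, and their part in the Langerhans cell list was not tested. Epcam, which keratinocytes of the hair follicle also express, differed by 0.68 ± 0.52 (limma adjusted p = 0.736). Genes of class I presentation were lower in 8 of 10, with a median of -0.27. Interferon gamma response genes, which include known inducers of Ciita, were lower in 6 of 10 with a median of -0.36. Irf1, an interferon-induced transcription factor, averaged 9.38 ± 0.57 (SD) in expanded and 10.91 ± 0.48 in non-expanded skin (-1.53 ± 0.36, limma adjusted p = 0.350). Its arms did not overlap (4.83% of all genes). Irf1 was likewise named for the lowest p of its list, a choice that favours genes whose arms lie apart. No gene of these lists passed the adjusted test, as no gene did in this comparison.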

How the data were processed

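The deposited values were read as log2 signals, 1 for each of 28846 probe sets on each of 10 arrays. Per the labels, biotin-labelled RNA was prepared with the Affymetrix WT PLUS kit, and mm10 is named in the submitters' processing notes. The log base, background correction and normalization are not given in the sources used here, and 586 probe sets exceed 16 on some array, none of them a member. Symbols were given for 19572 probe sets (19505 genes, the highest-mean probe set each). Genes with a mean over all arrays under the 30th percentile (4.86) were left out.

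Groups were compared with limma 3.58.1 (lmFit, eBayes, two-sided, Benjamini-Hochberg adjustment, threshold 0.05) in R 4.3.3. The code was tested on simulated data with less scatter than the tested members had, and with changes larger than their differences between the arms. That run therefore does not show how small a change these fits can detect. The fit of expanded against non-expanded skin had the day as a block (3 residual degrees of freedom), the lines over days had 4, and the fit of 3 groups had 7. Same-day arrays are paired by the labels. Their deviations from the arm means correlated at -0.133, -0.171, -0.104 and 0.358 on days 0, 7, 14 and 21. Tables were made with python 3.11.15, pandas 2.3.3 and numpy 2.4.6, and plots with matplotlib 3.10.9. The members and the 19 other lists were chosen with earlier results of these data known. All members are named, and up to 4 genes with the lowest p from each other list. The alternatives were no block, no filter, quantile normalization, values capped at 16, a trended prior, the mean of a gene's probe sets, and leaving out arrays. The number of arrays limits the precision.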

Additional observations from a re-analysis of the deposited data

Results flagged for a closer look

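Within the arms of 4 arrays, 1 of 18 sets of values held an array far from the rest by Dixon's test. Ciita measured 7.63 on the non-expanded array of day 21, against 5.96 on the next highest non-expanded array, a gap of 0.89 of the whole range, past the critical value for 4 samples. Chance gives about 1 in 20.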

How the results depend on the processing

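No call of a member changed under any setting other than leaving out the telogen array. Without the replicate block 2 genes passed between the arms, neither of them a member, and leaving out 1 day gave 0 to 1. In expanded against no-surgery skin 65 genes passed, against 33 with no filter on low values, 27 with values capped at 16 and 5 to 1850 without 1 array (8, 43 and 5 without expanded days 0, 7 and 14, 41, 100 and 20 without non-expanded days 0, 7 and 21, 1850 without telogen). In non-expanded against no-surgery skin 0 passed (2144 at an unadjusted p under 0.05), 1 with values capped at 16 and 0 to 2645 without 1 array (112 without non-expanded day 14, 2645 without telogen). No gene passed a test of the lines over days under any setting.

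Signs turned only on leaving out arrays. Between the arms the ranges were -0.24 to 0.78 for H2-Ab1, -0.45 to 0.26 for H2-Eb1, -0.37 to 0.39 for Ciita, -0.65 to 0.18 for H2-DMa, -0.69 to 0.12 for Cd207, -0.09 to 0.83 for Itgax and -0.40 to 0.14 for Cd40. Against no-surgery skin, expanded skin gave -0.10 to 1.01 for Ciita, -0.15 to 1.75 for Cd207 and -0.16 to 1.20 for Ccr7, and non-expanded skin -0.29 to 1.08 for Ccr7. Changes over the days in expanded skin gave -2.15 to 0.01 for Cd207 and -0.36 to 0.28 for Ccr7, those in non-expanded skin -0.22 to 1.15 for H2-DMa and -1.65 to 0.39 for Itgax, and the difference of the slopes -4.07 to 0.64 for Itgax. The causes were not tested.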
